A study of Mus musculus with 4 samples.

Results

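C-type lectin receptors are surface proteins that let macrophages and other myeloid cells read sugars and lipids on fungi, mycobacteria and damaged cells. Activating members pair with the adaptors FcR gamma (Fcer1g) or DAP12 (Tyrobp), or carry a tyrosine motif of their own, and signal through the kinase Syk and the scaffold CARD9 to NF-kB. Inhibitory members carry a tail motif that recruits the phosphatases SHP-1 (Ptpn6) and SHP-2 (Ptpn11). The genes described here are 9 such receptors, chosen by name and with earlier results of these data known. They are part of 24235 genes, of which 10680 reached 1 FPKM in any library. FPKM stands for fragments per kilobase of transcript, scaled to sequencing depth. All 9 passed that filter in each of the 4 libraries, and their RefSeq transcripts were summed per gene.

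The cells were bone marrow macrophages of C57BL/6 mice, 7 weeks old, cultured with M-CSF and either wild type (WT) or labelled Sema6D-/-, which by its name lacks both copies of the gene for the membrane-bound semaphorin 6D. Each genotype gave 1 library without LPS and 1 library after 4 h with LPS at 100 ng/ml (lipopolysaccharide, a cell wall component of Gram-negative bacteria). The titles alone separate the stimulated from the unstimulated libraries, since the treatment text is the same for all 4. With 1 library per group no difference below has a replicate check, no test across libraries was run, and every value describes these 4 libraries. The labels do not give the number of mice behind a library or the part of Sema6d that was deleted.

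The libraries held 17.2 M to 23.4 M fragments (M for mega), as estimated from the steps of low FPKM values, and 9682 to 10057 genes at 1 FPKM or more. Sema6d itself went against the genotype label, at 0.304 and 0.219 FPKM in WT (without and with LPS) and 0.563 and 0.592 FPKM in libraries labelled Sema6D-/-. All of these values lie below 1 FPKM and the deleted part of the gene is not given, so they cannot settle the label. Were the genotype labels exchanged, every genotype ratio below would turn, and so would each difference of LPS responses. Sex-linked genes separated the genotypes as well, with Xist at 22.3 and 21.4 FPKM in WT and at most 0.0333 FPKM in libraries labelled Sema6D-/-. The Y-linked gene Eif2s3y went the other way, at 33.5 and 50.4 FPKM there and at most 0.0207 FPKM in WT. So did Ddx3y, at 13.2 and 16.6 FPKM there and at most 0.00729 FPKM in WT. Genotype and sex therefore cannot be told apart in any genotype ratio or difference of LPS responses below. All 9 macrophage markers were measured, meaning 1 FPKM or more in any library, at summed levels of 17500 to 24800 FPKM. Of the 10 dendritic cell markers 6 stayed below 1 FPKM everywhere (Flt3, Zbtb46, Cd209a, Clec9a, Siglech and Dpp4), at summed levels of 7.79 to 26.7 FPKM over the whole list. Of the 10 neutrophil markers 9 were measured, with summed levels of 850 and 1320 FPKM in WT and 262 and 424 FPKM in libraries labelled Sema6D-/-, and Ly6g stayed below 1 FPKM. The 6 monocyte markers summed to 165 and 355 FPKM in WT and 275 and 605 FPKM there. Summed lymphocyte, mast cell and stromal markers reached at most 8.19 FPKM in any library. In bulk libraries a change in the share of a cell type and a change in RNA per cell cannot be told apart.

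As a group the 9 receptors were all expressed, and Clec4e, Clec4d and Clec12a together made up most of their summed level in every library. The sum was 754 FPKM in WT without LPS, 1801 FPKM in WT with LPS, 1105 FPKM in the library labelled Sema6D-/- without LPS and 3226 FPKM with LPS. Clec4e alone supplied 4.59% of it in WT without LPS, 40.6% in WT with LPS, 28.7% without LPS in the other genotype and 62.1% with LPS. The 4 activating receptors with a separate adaptor (Clec4e, Clec4d, Clec4n and Clec5a) summed to 453, 1440, 764 and 2810 FPKM in that order, and Clec4a2, Clec4a3 and Clec12a to 272, 327, 314 and 384 FPKM. Without Clec4e the sums were 720, 1069, 788 and 1223 FPKM in the same order. Total FPKM also differed between the libraries, at 370066, 534692, 371243 and 628278 in that order. The 9 receptors together made up 0.204%, 0.337%, 0.298% and 0.513% of it. With every library scaled to a common total, 6 of the 9 were lower with LPS in each genotype. Clec4d led the unstimulated libraries of both genotypes, and Clec4e led both LPS libraries. Clec10a held the last place in every library except WT without LPS, where Clec5a was lower.

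**Figure D1:**
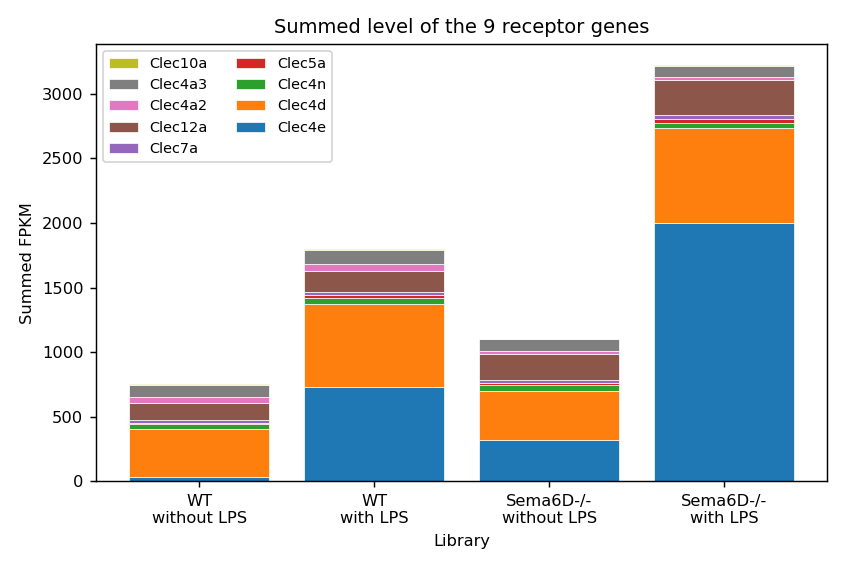
Summed FPKM of the 9 receptor genes (y axis) in each of the 4 libraries (x axis), with 1 coloured segment per gene and no error bars because each bar is 1 library. Bars are not scaled to the total FPKM of each library, which also differed. Clec4e is the segment that grows most, from 4.59% of the sum in WT without LPS to 62.1% in the library labelled Sema6D-/- with LPS.

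**Figure D2:**
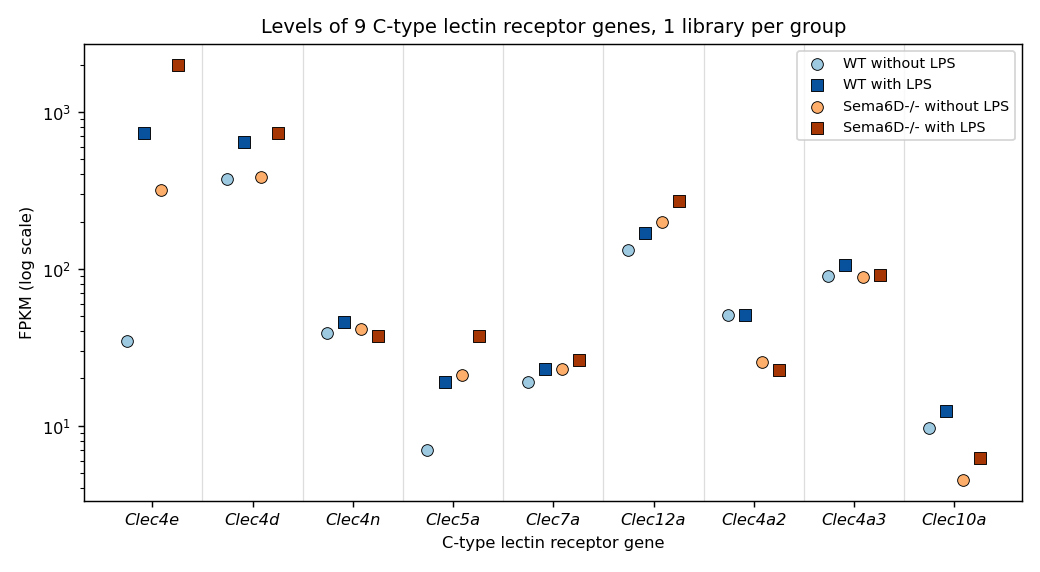
FPKM of each receptor gene (log axis) in the 4 libraries, 1 point per library and no error bars, with circles for no LPS and squares for LPS. Clec4e and Clec5a spread most over the libraries, and Clec4a2 and Clec10a separate by genotype more than by LPS.

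Clec4e, also called Mincle, the receptor for the mycobacterial cord factor that signals through FcR gamma, varied most of the 9. It measured 34.6 FPKM in WT without LPS, 732 FPKM in WT with LPS, 318 FPKM in the library labelled Sema6D-/- without LPS and 2002 FPKM there with LPS. Both LPS libraries were high, and the unstimulated library labelled Sema6D-/- lay between unstimulated WT and WT with LPS. Among genes at 1 FPKM or more, Clec4e ranked 1806th of 10028 in WT without LPS, 85th of 9814 in WT with LPS, 136th of 10057 without LPS in the other genotype and 26th of 9682 with LPS. With LPS it was 21.2-fold higher in WT (95% counting interval 20.3 to 22.1) and 6.30-fold higher in libraries labelled Sema6D-/- (6.20 to 6.41). These intervals cover counting error only, not the variation between mice or cultures. The libraries labelled Sema6D-/- exceeded WT 9.19-fold without LPS (8.81 to 9.59) and 2.74-fold with LPS (2.70 to 2.77).

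On the log2 scale with 1 FPKM added to each value, the LPS ratios of Clec4e were 4.36 in WT and 2.65 in libraries labelled Sema6D-/-, a difference of -1.71. As plain FPKM ratios, the response there was 0.298 of that in WT (0.285 to 0.311). On the linear scale the order was the other way round, since the level with LPS exceeded the level without it by 697 FPKM in WT and by 1680 FPKM in the other genotype. Its genotype ratio without LPS, 3.16, was the 20th highest of 10322 genes, and its difference of responses was the 54th lowest of 10680. With exchanged genotype labels these would be the 20th lowest and the 54th highest. These 4 log2 values and the genotype ratio with LPS, 1.45, kept their direction under each of the 6 alternatives of scaling, filtering, added value and transcript choice, with the difference of responses between -1.95 and -1.58. The alternatives of filtering and transcript choice could not change Clec4e, which passed the filter in every library and has 1 transcript.

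Clec4d, known as MCL, forms a complex with Mincle and binds the same glycolipid, and its gene is the neighbour of Clec4e in RefSeq gene order. It measured 373 FPKM in WT without LPS, 642 FPKM with LPS, 384 FPKM in the library labelled Sema6D-/- without LPS and 732 FPKM with LPS. Both LPS libraries were above both unstimulated ones, and the genotypes lay close together in each state. The LPS ratio was 1.72-fold in WT (1.68 to 1.77) and 1.91-fold in the other genotype (1.86 to 1.96), below the 2-fold size rule in both. With a common total these became 0.25 and 0.17 on the log2 scale, from 0.78 and 0.93. Genotype ratios were 1.03-fold without LPS (1.00 to 1.06) and 1.14-fold with LPS (1.11 to 1.17), and the latter became -0.04 on the log2 scale once every library was brought to a common total. The level of Clec4e per unit of Clec4d was 0.0928 in WT without LPS, 1.14 in WT with LPS, 0.828 in the library labelled Sema6D-/- without LPS and 2.73 with LPS.

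Clec5a, the receptor MDL-1 that signals through DAP12 and is bound by dengue virus, had its lowest and its highest level in the same libraries as Clec4e, at far lower levels. It measured 7.045 FPKM in WT without LPS, 18.9 FPKM in WT with LPS, 21.0 FPKM in the library labelled Sema6D-/- without LPS and 37.2 FPKM with LPS. The lowest library was unstimulated WT, and the unstimulated library of the other genotype already exceeded WT with LPS. LPS ratios were 2.68-fold in WT (2.37 to 3.02) and 1.77-fold in libraries labelled Sema6D-/- (1.59 to 1.96). With a common total these became 0.82 and 0.06 on the log2 scale, from 1.30 and 0.79. Genotype ratios were 2.98-fold without LPS (2.66 to 3.36) and 1.97-fold with LPS (1.77 to 2.2). These intervals pool the fragments of the transcript variants and leave out the sharing of fragments between them, so they are too narrow. The 858-base variant measured 3.18 and 13 FPKM in WT and 14.7 and 29.7 FPKM in the other genotype. The 3747-base variant varied less, at 3.87 and 5.84 FPKM in WT and 6.37 and 7.47 FPKM there. The difference of responses of Clec5a was -0.51 on the log2 scale, below the size rule, and lay between -0.78 and -0.29 over the alternatives.

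Clec4n, or Dectin-2, binds fungal mannans and also pairs with FcR gamma. Its levels were 39.1 FPKM in WT without LPS, 46.0 FPKM in WT with LPS, 41.3 FPKM in the library labelled Sema6D-/- without LPS and 37.1 FPKM with LPS. The highest library exceeded the lowest 1.24-fold, and the groups showed no common order. The FPKM ratio with LPS was 1.18-fold in WT (1.08 to 1.28) and 0.898-fold in the other genotype (0.810 to 0.995). The log2 LPS ratios were 0.23 in WT (-0.29 with all libraries at a common total) and -0.15 in the other genotype, which became 0.49 when only the transcript with the highest mean was used.

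Promoter windows of 300 bases, 250 before to 50 after an annotated start, were searched because Clec4e, Clec4d and Clec5a were the 3 members above their unstimulated level in both genotypes under every alternative, while Clec4a2 was lower in libraries labelled Sema6D-/- in both states. The motifs were C/EBP (TTGCNNAA), PU.1 (GAGGAA), AP-1 (TGANTCA) and the NF-kB consensus, on both strands, and no match of one overlapped a match of another in the windows shown. Sequences are from RefSeq on GRCm38.p6, which is not the mm9 build of the expression files, and are written 5′ to 3′ on the gene's strand with matches in capitals. The windows lie at chr6:123289822-123290121 (minus strand) for Clec4e, chr6:123261857-123262156 (plus) for Clec4d, chr6:40585756-40586055 (minus) for Clec5a and chr6:123122440-123122739 (plus) for Clec4a2.
Clec4e: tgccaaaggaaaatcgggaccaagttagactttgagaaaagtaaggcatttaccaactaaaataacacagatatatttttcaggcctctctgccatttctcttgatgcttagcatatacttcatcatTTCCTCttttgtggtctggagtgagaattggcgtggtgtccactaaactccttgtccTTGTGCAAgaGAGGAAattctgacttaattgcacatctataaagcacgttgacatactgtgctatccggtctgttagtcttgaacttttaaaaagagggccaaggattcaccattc
Clec4d: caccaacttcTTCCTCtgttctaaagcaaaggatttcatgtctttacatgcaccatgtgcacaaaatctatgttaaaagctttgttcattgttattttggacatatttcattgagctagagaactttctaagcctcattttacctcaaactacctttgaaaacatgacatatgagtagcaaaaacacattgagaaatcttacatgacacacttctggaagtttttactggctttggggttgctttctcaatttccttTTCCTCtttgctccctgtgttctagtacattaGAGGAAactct
Clec5a: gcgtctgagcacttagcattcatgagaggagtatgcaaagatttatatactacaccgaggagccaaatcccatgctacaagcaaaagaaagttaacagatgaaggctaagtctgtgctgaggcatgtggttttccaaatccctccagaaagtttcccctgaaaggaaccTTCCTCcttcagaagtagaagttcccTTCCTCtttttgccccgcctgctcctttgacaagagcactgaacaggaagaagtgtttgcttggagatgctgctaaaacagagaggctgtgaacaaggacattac
Clec4a2: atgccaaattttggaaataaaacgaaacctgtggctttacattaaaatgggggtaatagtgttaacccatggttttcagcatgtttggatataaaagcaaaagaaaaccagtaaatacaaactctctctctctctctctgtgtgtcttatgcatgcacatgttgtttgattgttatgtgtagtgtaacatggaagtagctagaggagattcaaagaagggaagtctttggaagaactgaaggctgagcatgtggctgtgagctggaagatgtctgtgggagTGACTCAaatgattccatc

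The Clec4e window held a C/EBP match at -66 from the start and PU.1 matches at -123 and -56. The Clec4d window held PU.1 matches at -240, 8 and 40, and the Clec5a window at -81 and -55. Clec4a2 had an AP-1 match at 32 and none of the others. RefSeq windows were found for 7 of the 9 members, and Clec4n and Clec10a were not among them. These 7 genes had 9 windows, since Clec4a3 and Clec7a each have 2 that overlap, and members are counted here by gene with a match in any window, the background by window. A PU.1 match was present for 6 of the 7 genes and in 7 of the 9 windows, against 28.3% of 32851 windows of the same length. C/EBP matched for 2 (Clec4e and Clec12a) against 10.8% of windows, AP-1 for 2 against 7.81%, and NF-kB for 0 against 8.46%. A match is a description of these letters and was not tied to the expression values by any test.

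Clec7a encodes Dectin-1, the receptor for fungal beta-glucans with an activating motif in its own tail. It measured 19.05 FPKM in WT without LPS, 23.1 FPKM in WT with LPS, 22.9 FPKM in the library labelled Sema6D-/- without LPS and 26.2 FPKM with LPS, on 255 to 335 fragments. The unstimulated WT library was the lowest, but the whole range spanned 1.38-fold. Its LPS ratios were 1.21-fold in WT (1.03 to 1.43) and 1.15-fold in the other genotype (0.962 to 1.36), so the second was not detectable at this depth, and both turned negative on the log2 scale (-0.24 and -0.54) after rescaling to a common total. The variant listed at 707 bases held 93.5 to 97.2% of the gene's FPKM in the 4 libraries. C57BL/6 mice are known to express mainly a short Dectin-1 isoform. The annotated lengths alone do not show whether this variant is that isoform, which was not tested. An annotated lncRNA, Gm45969, overlaps Clec7a, and whether counting used strand is not given in the sources used here.

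Among the receptors of the DCIR family and the inhibitory receptors, Clec12a and Clec4a2 differed between genotypes in opposite directions. Clec12a, the inhibitory receptor MICL that recognises uric acid crystals, measured 132 FPKM in WT without LPS, 170 FPKM in WT with LPS, 200 FPKM in the library labelled Sema6D-/- without LPS and 271 FPKM with LPS. Both libraries labelled Sema6D-/- were above both WT libraries. The genotype ratio was 1.52-fold without LPS (1.47 to 1.56) and 1.59-fold with LPS (1.55 to 1.64). Its LPS ratios of 1.29-fold in WT (1.25 to 1.33) and 1.35-fold in the other genotype (1.31 to 1.39) turned to log2 values of -0.17 and -0.32 after rescaling to a common total.

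Clec4a2 encodes DCIR, whose tail recruits SHP-1 and SHP-2. It measured 50.7 FPKM in WT without LPS, 51.1 FPKM in WT with LPS, 25.4 FPKM in the library labelled Sema6D-/- without LPS and 22.7 FPKM with LPS. LPS hardly separated the libraries, with ratios of 1.01-fold in WT (0.925 to 1.10) and 0.894-fold in the other genotype (0.779 to 1.03), neither detectable at this depth. WT exceeded the other genotype 2.0-fold without LPS (1.81 to 2.22) and 2.25-fold with LPS (1.98 to 2.56), and the log2 ratios of the libraries labelled Sema6D-/- to WT were -0.97 and -1.14. On the main scale the first of these narrowly missed the size rule and the second passed it. Of the 50-base words in its variants at 0.01 FPKM or more, 13.7% also occur in Clec4a4 or Clec4b1, so fragments could be shared with these copies.

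Clec4a3, named Dcir3 among its RefSeq synonyms, stayed nearly level. It measured 89.6 FPKM in WT without LPS, 106 FPKM in WT with LPS, 88.5 FPKM in the library labelled Sema6D-/- without LPS and 90.7 FPKM with LPS, a range of 1.19-fold. WT with LPS was the highest library, 1.18-fold above WT without LPS (1.12 to 1.25), while that ratio was 1.03-fold in the other genotype (0.960 to 1.09). After rescaling to a common total both LPS ratios were negative on the log2 scale (-0.29 and -0.71). The genotype ratio with LPS was 0.859-fold (0.806 to 0.915).

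Clec10a, the galactose-binding lectin MGL1 and a marker of alternatively activated macrophages, was also lower in both libraries labelled Sema6D-/-. It measured 9.63 FPKM in WT without LPS, 12.5 FPKM in WT with LPS, 4.505 FPKM in the library labelled Sema6D-/- without LPS and 6.21 FPKM with LPS, on 127 to 376 fragments. Both WT libraries were above both others. WT exceeded the other genotype 2.14-fold without LPS (1.74 to 2.64) and 2.01-fold with LPS (1.63 to 2.48), which became log2 ratios of -0.95 and -0.90 with the added 1. LPS ratios were 1.30-fold in WT (1.11 to 1.51) and 1.38-fold in the other genotype (1.07 to 1.77), and both turned negative on the log2 scale after rescaling to a common total (-0.14 and -0.25) or with the leading transcript alone (-0.13 and -0.09). Its transcripts share 16.2% of their 50-base words with Mgl2, the neighbouring paralogue, which measured 0.629 to 1.03 FPKM.

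With LPS most of the 9 receptors stayed within the 2-fold size rule. In WT 2 of the 9 (Clec4e and Clec5a) were at least 2-fold higher, where 10.7% of 10375 genes were, and 0 were lower, where 4.85% were. In the libraries labelled Sema6D-/- 1 of the 9 (Clec4e) was higher against 14.0% of 10398 genes, and 0 were lower against 8.81%. The median log2 ratio of the 9 was 0.34 in WT and 0.39 in the other genotype, against medians of 0.00 and 0.01 over all genes tested. Rescaling to a common total moved the medians of all genes to -0.47 and -0.66 and those of the 9 members to -0.17 and -0.32, while centring subtracted 0.11 and 0.15. With the common total the shares of all genes at least 2-fold higher and lower were 6.77% and 14.3% in WT and 7.07% and 28.8% in the other genotype, where centring gave 12% and 11.9%. Centring subtracts the same value from all genes, and a common total multiplies all genes of a library by the same factor. Neither step could do much to the gap between the median member and the median gene, so neither tests it.

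**Figure D3:**
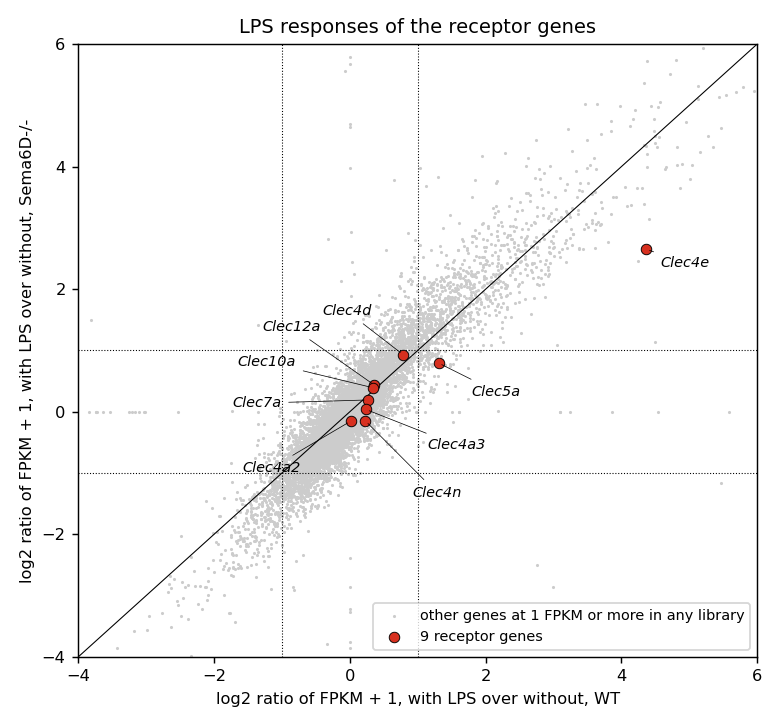
log2 ratios of FPKM + 1 with LPS over without LPS in WT (x axis) and in libraries labelled Sema6D-/- (y axis), with red points for the 9 receptor genes, grey points for other genes within the axis range, dotted lines at 2-fold and a line of equal response. Clec4e lies far below the line (4.36 and 2.65) and Clec5a somewhat below it (1.30 and 0.79), while the other 7 receptors lie within 0.38 of it.

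Between genotypes the members were spread to both sides. Without LPS 2 of the 9 (Clec4e and Clec5a) were at least 2-fold higher in the library labelled Sema6D-/-, against 2.51% of 10322 genes, and 0 were lower against 2.19%. With LPS 1 was higher (Clec4e) and 1 lower (Clec4a2), against 3.09% and 3.18% of 10078 genes. Median log2 ratios of the 9 were 0.08 and 0.18, against 0.04 and 0.04 over all genes tested. For the difference of the LPS responses 0 of the 9 were at least 2-fold higher, against 1.83% of 10680 genes, and 1 was lower (Clec4e), against 1.25%. With the common total the shares of all genes higher and lower were 1.91% and 4.18% between genotypes with LPS, and 1.14% and 2.06% for the difference of responses. In both states Clec4e, Clec5a and Clec12a were higher and Clec4a2 and Clec10a lower in libraries labelled Sema6D-/- under all 6 alternatives. Of these, leaving out the filter could not change any member. Marker lists moved with genotype too, and their part in these ratios was not tested. Of the 9 macrophage markers 1 was at least 2-fold higher in the library labelled Sema6D-/- without LPS (Cd14), and 0 were lower. With LPS 2 were higher there (Cd14 and Mertk) and 1 was lower (Itgam). Of the 9 measured neutrophil markers 5 were at least 2-fold lower without LPS and 6 with LPS in libraries labelled Sema6D-/-, and 0 were higher. Of the 6 monocyte markers 0 were higher and 1 lower in each state (Cd177), and their sum followed mainly Ly6c2 (98.7 and 247 FPKM in WT, 183 and 457 FPKM in the other genotype). Of the 4 measured dendritic cell markers 1 was higher (Itgax) and 1 lower (Batf3) without LPS, and 2 were higher with LPS (Itgax and Ccr7). Itgax measured 0.178 and 0.349 FPKM in WT and 6.86 and 16.3 FPKM in the other genotype, and Batf3 5.98 and 3.31 FPKM in WT and 2.37 and 1.18 FPKM there.

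**Figure D4:**
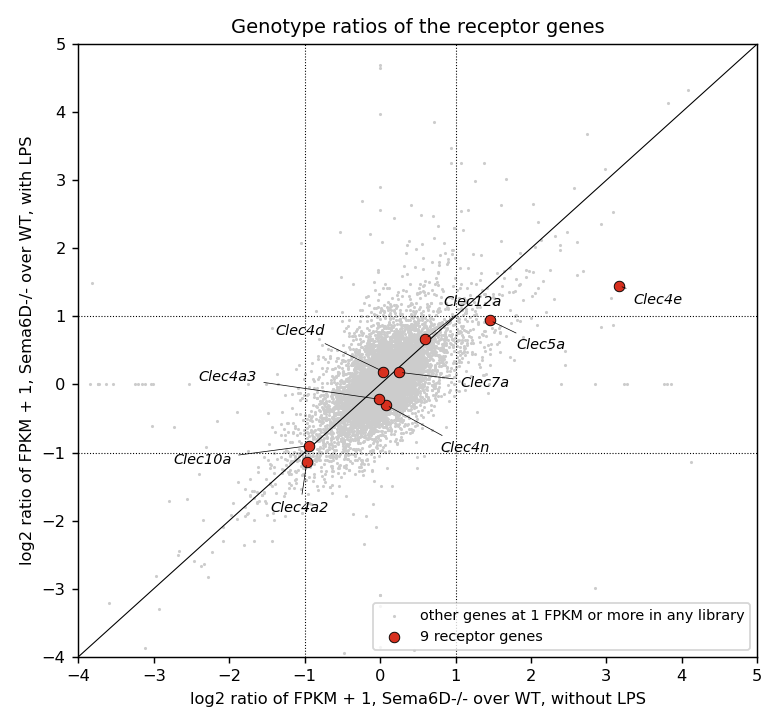
log2 ratios of FPKM + 1 of the libraries labelled Sema6D-/- over WT without LPS (x axis) and with LPS (y axis), with red points for the 9 receptor genes, grey points for other genes within the axis range, dotted lines at 2-fold and a line of equality. Clec4e and Clec5a lie to the upper right, Clec4a2 and Clec10a to the lower left, near -1 on both axes.

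Transcript variants differed in how steadily they were assigned. For Clec5a the variant of 858 bases went from 3.18 to 13 FPKM with LPS in WT and from 14.7 to 29.7 FPKM in the other genotype, while the variant of 3747 bases went from 3.87 to 5.84 FPKM and from 6.37 to 7.47 FPKM. The short variant thus held 45.1% of the gene in unstimulated WT and 69.1 to 79.9% in the other 3 libraries. For Clec4a2 the variant of 918 bases held 57.4 and 59.7% in WT and 42.3 and 40.4% in libraries labelled Sema6D-/-. In Clec10a the variant of 1496 bases went from 36.2 to 55.8% with LPS in WT and from 25.9 to 50.6% in the other genotype. Clec4n showed no such order, since its variant of 1140 bases held 33.2 and 40.4% in WT with LPS and in the unstimulated library labelled Sema6D-/-, and at most 0.0102% in the other 2 libraries. Clec4e and Clec12a each had 1 transcript in the files.

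**Figure D5:**
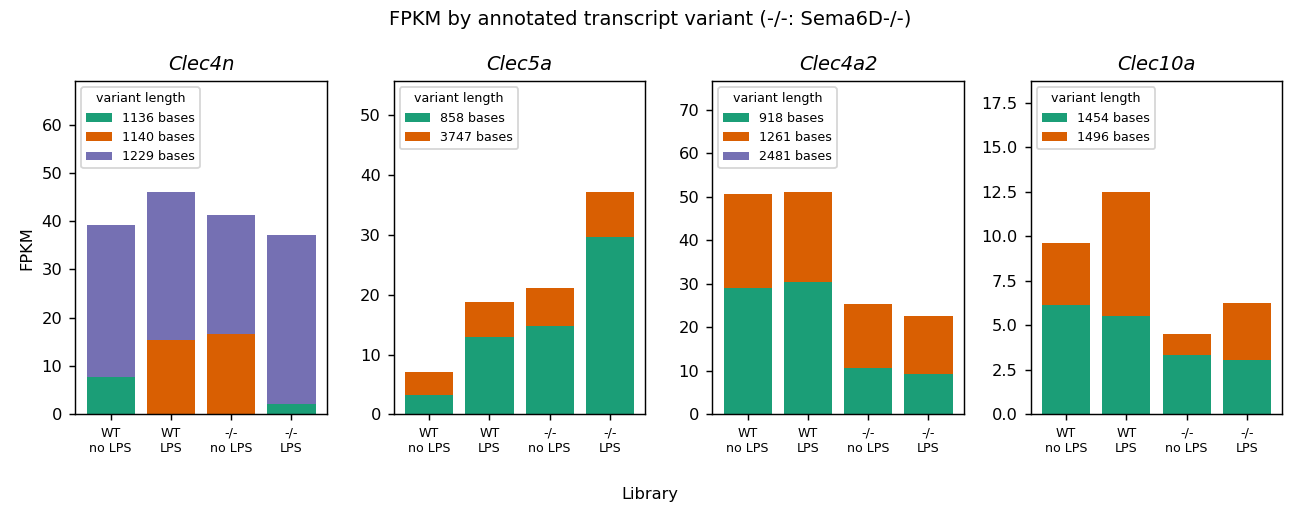
FPKM of the annotated transcript variants (stacked bars, coloured by length in bases) of Clec4n, Clec5a, Clec4a2 and Clec10a in the 4 libraries, without error bars because each bar is 1 library. The 858-base variant of Clec5a carries most of its difference between libraries, and the minor Clec4n variants exchange places without following LPS or genotype.

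The members sit in 2 blocks of lectin genes on chromosome 6, with Clec5a elsewhere on that chromosome and Clec10a on chromosome 11. In the block from Clec4a1 to Clec4e 7 of 9 protein-coding genes were measured. Clec4a1, the neighbour of Clec4a3, measured 349 and 554 FPKM in WT and 265 and 423 FPKM in libraries labelled Sema6D-/-, and Clec4b1 measured 3.83 to 7.30 FPKM. The log2 LPS ratios along the block in WT were 0.67 for Clec4a1, 0.24 for Clec4a3, -0.50 for Clec4b1, 0.01 for Clec4a2, 0.23 for Clec4n, 0.78 for Clec4d and 4.36 for Clec4e, so the large ratio stood at its last gene. In the block from Clec12a to Olr1 3 of 7 genes were measured, and Olr1, the oxidised LDL receptor LOX-1, had LPS ratios of 4.14 in WT and 3.37 in the other genotype. Clec12b, Clec1b, Clec9a and Clec1a between them stayed below 1 FPKM.

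Of 38 other C-type lectin genes 18 were measured, and LPS left 5 at least 2-fold higher and 0 lower in WT (median log2 ratio 0.27). In the libraries labelled Sema6D-/- 6 were higher and 1 lower (median 0.35). Cd69, an early activation marker, measured 3.61 and 703 FPKM in WT and 14.0 and 1810 FPKM in the other genotype. Klrk1, the receptor NKG2D, measured 0.0948 and 4.29 FPKM in WT and 0.270 and 7.40 FPKM there. Genotype ratios passed the size rule for 2 higher and 1 lower gene without LPS and for the same numbers with LPS. None of the 18 differed 2-fold in response between genotypes. The shares of all genes higher and lower were 2.51% and 2.19% between genotypes without LPS, and 3.09% and 3.18% with LPS. For the difference of responses they were 1.83% and 1.25%.

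The adaptors that the activating receptors need were abundant in all 4 libraries. Fcer1g and Tyrobp were named for their direct pairing with members, with their values known. Fcer1g measured 1730 FPKM in WT without LPS, 2490 FPKM with LPS, 1850 FPKM in the library labelled Sema6D-/- without LPS and 2900 FPKM with LPS. Tyrobp measured 986, 1080, 1220 and 1240 FPKM in the same order. Of 14 proximal adaptors and kinases 3 passed the size rule upward with LPS in WT and 4 in the other genotype, with 0 lower in either (median log2 ratios 0.63 and 0.38). Between genotypes 1 was higher (Fgr) and 1 lower without LPS, and 0 with LPS (medians 0.16 and 0.19). Src had log2 LPS ratios of 2.46 and 2.64, and Lyn 1.20 and 1.56. Fgr, another Src-family kinase, measured 19.6 and 33.6 FPKM in WT and 59.5 and 50.9 FPKM in the other genotype.

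Downstream, the CARD9 and NFAT list had 2 members at least 2-fold higher and 2 lower of 14 in each genotype with LPS (median log2 ratios 0.12 and 0.15). Malt1, the protease that acts with CARD9 and BCL10, measured 6.92 and 47.6 FPKM in WT and 14.4 and 182 FPKM in libraries labelled Sema6D-/-. The genes past the size rule differed in part. Malt1 and Nfatc2 (log2 LPS ratios of -1.86 and -2.52) passed it in both genotypes, Bcl10 (1.13 and 0.87) and Nfatc1 (-1.26 and -0.74) in WT, and Rcan1 (0.60 and 1.01) and Card9 (-0.83 and -1.32) in the other genotype. Rcan1 and Card9 were named after their values were seen, and Card9 measured 19.2 and 10.3 FPKM in WT and 21.7 and 8.07 FPKM there. Between genotypes 0 of the 14 passed the size rule without LPS, and 1 was higher and 1 lower with LPS. Of 8 inhibitory phosphatases and adaptors 1 was at least 2-fold lower in WT, and 3 were lower and 1 higher in the other genotype (median log2 ratios -0.24 and -0.65). Inpp5d, the lipid phosphatase SHIP1, measured 96.5 and 51.6 FPKM in WT and 85.3 and 23.3 FPKM there. Cblb, a ubiquitin ligase that restrains these receptors, measured 11.7 and 15.5 FPKM in WT and 6.46 and 23.7 FPKM there, the only 1 of the 8 with a 2-fold difference of responses (1.35). Between genotypes 0 of these 8 passed the size rule without LPS and 2 were lower with LPS. The shares of all genes higher and lower between genotypes were 2.51% and 2.19% without LPS, and 3.09% and 3.18% with LPS. For the difference of responses 1.83% of all genes were higher and 1.25% lower.

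Among 14 transcription factors described upstream of the receptor genes 13 were measured. With LPS 6 were at least 2-fold higher and 2 lower in WT, and 8 higher and 1 lower in libraries labelled Sema6D-/- (median log2 ratios 0.86 and 1.34). Over all genes tested the shares higher and lower were 10.7% and 4.85% in WT, and 14.0% and 8.81% in the other genotype. Nfkb1 measured 38.7 and 240 FPKM in WT and 71.1 and 378 FPKM in the other genotype, and Rel had log2 LPS ratios of 2.17 and 2.86. Cebpd had 1.91 and 2.42, and Cebpa, which supports myeloid differentiation, -3.00 and -3.56. None of the 13 had a 2-fold difference of responses, against 1.83% of all genes higher and 1.25% lower. Between genotypes 0 were higher and 1 lower without LPS, against 2.51% and 2.19% of all genes. With LPS 1 was higher and 1 lower between genotypes, against 3.09% and 3.18%.

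To see which genes ran most like the receptors, the 4 log2 values of each gene were centred and compared by Euclidean distance over 7795 protein-coding genes, in 4 libraries. For Clec4e the nearest was Gpr84, a receptor for medium-chain fatty acids, at a distance of 0.22 (12.6 and 256 FPKM in WT, 112 and 619 FPKM in libraries labelled Sema6D-/-), and it was the only 1 within 0.5. Traf1 (0.85) and Enpp4 (0.89) came next. The nearest to Clec5a were Cybb (0.13), the catalytic subunit of the phagocyte NADPH oxidase, Ptpro (0.23) and Mocs1 (0.24), among 38 genes within 0.5. Clec4a2 had 105 genes within 0.5, led by Fcgrt (0.05), the neonatal Fc receptor, Cox7a2l (0.07) and Idua (0.07). Clec10a had 111, led by Serp1 (0.12), Itgam (0.12), the integrin CD11b, and Apoe (0.14).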

How the data were processed

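Messenger RNA was measured in 4 libraries, 1 per group. The authors deposited FPKM for each RefSeq transcript in each library. Cuffnorm 2.2.1, SAMtools 0.1.19, Bowtie2 2.2.3 and TopHat2 2.0.13, with mm9, are listed in the submitters' processing notes. Their roles, options, annotation version and scaling between libraries are not given in the sources used here. The labels give Trizol in one field and RNeasy in another. Cuffnorm shares fragments among variants, so single-variant values are less certain than gene sums.

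Of 34487 transcripts 34163 were named from the RefSeq table of GRCm38.p6, 187 from GENCODE vM21 and 137 by neither, and the latter were left out. Transcripts were summed per gene. The log2 ratios had 1 FPKM added on both sides, so that those of low genes are understated, and folds were ratios of FPKM. Genes entered at 1 FPKM or more in a compared library, and counts used a 2-fold size rule. Fold intervals (95%) came from fragment numbers by the exact binomial method, that of the difference of responses by a normal approximation. Fragments were FPKM times effective length times a step per library, at which 73.7 to 75.9% of low values fell within 0.1 of a whole number (20% by chance); the step search and the ratios were checked on simulated data. Lengths are those of GENCODE transcripts, so fragment numbers are estimates. Molecular identifiers are not mentioned. Intervals cover the counting error of summed gene fragments only, not the sharing of fragments among variants.

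The members and gene lists were chosen with earlier results of these data known. All 9 members were named, plus up to 4 genes per list with the largest LPS ratio in WT or difference of responses, and the 3 genes nearest in pattern for up to 4 members. Values of 2 of the listed genes are not reported here. Alternatives were added values of 0.1 and 5 FPKM, no filter, a common total, centring on the median of 6110 genes (5 FPKM or more in all 4 libraries), and the leading transcript alone. Python 3.11.15, pandas 2.3.3, NumPy 2.4.6, SciPy 1.17.1 and Matplotlib 3.10.9 were used.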

Additional observations from a re-analysis of the deposited data

Results flagged for a closer look

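For 2 of the 9 receptors the LPS ratio pointed up in WT and down in the libraries labelled Sema6D-/-, and the difference was not tested because each group was 1 library. Clec4n had log2 ratios of 0.23 and -0.15, a difference of -0.38. Clec4a2 had 0.01 and -0.16, a difference of -0.17, and without the added 1 the 95% counting interval of that difference ran from -0.41 to 0.06. The WT ratio of Clec4a2 turned to -0.10 with centring and to -0.51 with a common total, so that both genotypes then pointed down. The sign of the Clec4n difference turned to 0.52 with its leading transcript alone.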

How the results depend on the processing

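Over 6 alternatives none of the member ratios past the size rule changed sign. Of 270 member ratios recomputed, 202 moved by no more than their counting error and 68 by more. With LPS in WT the count of members at least 2-fold higher went from 2 to 1 with 5 FPKM added and to 1 after rescaling to a common total, in both cases Clec4e alone. Without LPS the count lower in the library labelled Sema6D-/- went from 0 to 1 with 0.1 FPKM added (Clec10a) and to 1 with the leading transcript alone (Clec4a2). With LPS the count lower there went from 1 to 2 after rescaling to a common total, when Clec10a joined Clec4a2, and the count higher went from 1 to 2 with the leading transcript alone, when Clec5a joined Clec4e. Directions held under all 6 alternatives for 3 of 9 members with LPS in WT and 4 in the other genotype, and for 7 and 6 members between genotypes without and with LPS. The common total turned the LPS ratios of 6 members in WT and 4 in the other genotype, all of them under 2-fold. Leaving out a library removes a group, so no such value exists. No paired analysis was possible because the groups, 1 library each, shared fewer than 2 replicate numbers. Depth limits Clec10a and Clec7a most, with 127 to 376 fragments.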
